A study of Sus scrofa with 4 samples.

Results

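The tags described here were most frequent in 1 of 4 SAGE libraries of pig back muscle, that of a young lean pig. Serial analysis of gene expression (SAGE) counts short sequence tags, each cut from a transcript just after its last CATG, the site of the anchoring enzyme. A tag belongs to the group if it had 10 or more copies over the 4 libraries together and if its share of the Dunel 3 months library was at least 2 times its share in each of the other 3 libraries. Of 17902 different tags, 464 reached the minimum of 10 copies, and 42 of those met the rule. The counts of all 4 libraries chose these tags, so the members were selected on the values that show their excess in the Dunel 3 months library, and that excess is a description with no test.

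All 4 libraries came from biopsies of the Longissimum dorsi of castrated male pigs reared in the same conditions, with 1 library per group. The first group is a Dunel (Landrace X Duroc) pig at 3 months, the second the Dunel pig at 9 months, the third a purebred Large White pig at 3 months and the last the Large White pig at 9 months. The design text gives 1 pig of each line, the Dunel pig picked as lean and the Large White pig as fat on weight and daily gain, so line and animal cannot be told apart. A separate age label reads 3 months for every sample, and the ages in the titles were followed. The libraries held 12980 to 13590 tags from 549 to 654 sequenced clones, so that a tag at 0 copies could still have made up to 0.0221% to 0.0231% of a library. The Large White 9 months library stood apart, with 7665 distinct tags against 4437 to 5241 in the others and the fewest ditags that repeat one already listed, 6.94% of valid ditags against 15.1% to 19.5%.

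The Longissimum dorsi is the long muscle beside the spine, rich in fast fibres that work on glycolysis, and it gives the loin cut. During growth such a muscle lays down contractile protein and, later, fat between its fibres. A SAGE library samples the abundant messengers of the whole biopsy, so contractile proteins, glycolytic enzymes, mitochondrial transcripts and ribosomal proteins usually lead it. In a bulk biopsy, fewer cells of a type and less RNA per cell cannot be told apart. Tags were not matched to genes here, so each is given by its sequence, and muscle marker genes were not checked.

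The 12 members with most copies in the Dunel 3 months library held 68.5% of all member copies there, and 11 of them are shown first for that reason. The 4 bases in lower case are the anchoring site, the capitals are the 17 bases of the tag, and each tag is called below by its first 6 bases.
Member ACTTCA: catgACTTCAACCCGGATGTG
Member GCCAGA: catgGCCAGAAGGTGGCTGAT
Member TGCCCC: catgTGCCCCTCCTCGCCAGG
Member GCCCGT: catgGCCCGTGCCAACGCCCG
Member GCCGCC: catgGCCGCCATCCGCAGAGC
Member GATGAG: catgGATGAGGCGGGCAGGTG
Member CAAACT: catgCAAACTCTTGCCACGAT
Member GGCGCA: catgGGCGCAGGCGTGGGGGC
Member CGCTGG: catgCGCTGGGTTCTGCCCGC
Member AAGGCT: catgAAGGCTCCGCCGTCACT
Member GTGGGA: catgGTGGGAAACTCATTAAA

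Together the 42 members made up 8.29% of the Dunel 3 months library (1126 tags, 95% Wilson interval 7.83% to 8.76%). They made up 2.03% of the Dunel 9 months library (264 tags, 1.80% to 2.29%), 1.61% of the Large White 3 months library (212 tags, 1.41% to 1.84%) and 1.51% of the Large White 9 months library (203 tags, 1.32% to 1.73%). All intervals cover counting error only, since ditags were amplified without molecular identifiers. The same rule, applied to each of the other libraries in turn, gave 28 tags for Dunel 9 months, 24 for Large White 3 months and 18 for Large White 9 months. As shares of the 464 tags these are 6.03%, 5.17% and 3.88%, against 9.05% for Dunel 3 months. Peaking in a single library by this margin was therefore seen in every library. The order of these counts depended on the setting. Under TMM scaling, a trimmed mean normalisation between libraries, they were 36 for Dunel 3 months against 16, 22 and 36, and with a minimum of 5 copies they were 98 against 110, 86 and 74. Under the other alternatives Dunel 3 months had the most. The counts were 16 against 9, 11 and 13 at a ratio of 3, and 29 against 6, 7 and 10 with a minimum of 20 copies. At the settings of the rule, the sets of the other 3 libraries held 472, 388 and 476 tags in their own library.

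**Figure D1:**
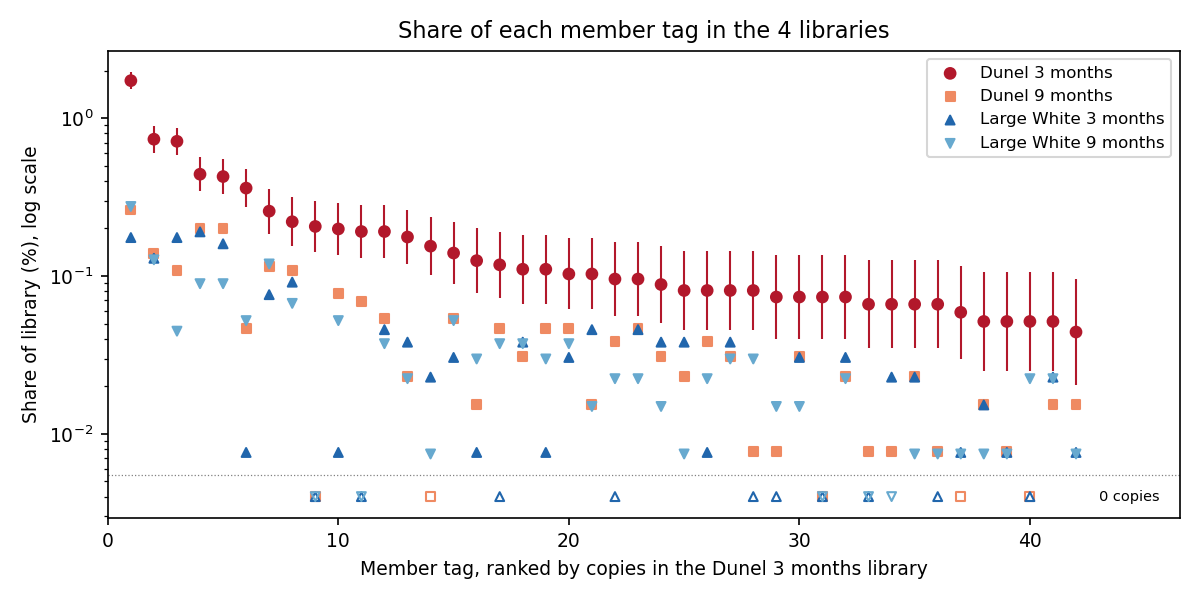
Share of the library, in percent on a log scale, for each of the 42 member tags in the 4 libraries, with members ranked by their copies in the Dunel 3 months library. Red circles are the Dunel 3 months library with 95% Wilson intervals, squares the Dunel 9 months library, triangles the Large White libraries, and open symbols on the lowest line mark 0 copies. Shares in the Dunel 3 months library run from 1.73% for the first member to 0.0442% for the last.

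The set was led by a few frequent tags. ACTTCA had 235 copies in the Dunel 3 months library, 34 in Dunel 9 months, 23 in Large White 3 months and 37 in Large White 9 months. Its share was 1.73% (1.52% to 1.96%) in the first library and between 0.175% and 0.276% in the other 3, and it supplied 20.9% of all member copies. GCCAGA had 100 copies against 18, 17 and 17 in the same order. On library totals the other 3 libraries held nearly one level of it, with shares of 0.139%, 0.129% and 0.127%. TGCCCC had 97 copies against 14, 23 and 6. These 3 tags held 38.4% of the member copies, and their ratios to the highest other share were 6.27, 5.31 and 4.07. Under TMM scaling the ratios were 4.03, 3.73 and 3.79.

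The next members were more even between libraries. GCCCGT had 60, 26, 25 and 12 copies, and GCCGCC had 58, 26, 21 and 12. Both stood close to the limit of the rule, at ratios of 2.20 and 2.13, and both were lowest in Large White 9 months. The 26 and 25 copies of GCCCGT in Dunel 9 months and Large White 3 months set no order between those libraries. GATGAG, in contrast, had 49 copies against 6, 1 and 7, a ratio of 6.91. CAAACT had 35, 15, 10 and 16 copies, GGCGCA had 30, 14, 12 and 9, and CGCTGG had 27, 10, 1 and 7. GTGGGA had 26 copies against 7, 6 and 5 and was the only member that holds a polyadenylation signal (ATTAAA), the motif that precedes the poly(A) tail. Tags with AATAAA or ATTAAA, read on the tag's strand, were 4.53% of all 464 tags and 2.38% of the members.

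Of the 42 members, 2 were seen in no other library, and 1 of these is shown.
Member GCGGAG: catgGCGGAGGCAGAGGGCAT
The tag GCGGAG had 10 copies in the Dunel 3 months library and 0 in the other 3. With 3 counts put in place of each 0, library by library, its share was at least 3.18-fold higher than in each of the others. The tags that differ from it by 1 base held 4 copies in the Dunel 3 months library and 0 in the other 3, so no near-identical tag took its place there. Another 11 members were at 0 in 1 or 2 of the other libraries, and 29 were seen in all 4.

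The 30 members after the first 12 were scarce tags, with 6 to 24 copies in the Dunel 3 months library, at most 7 in any other library and a median of 2.5 in each of them. AGTGCA, with 24, 3, 5 and 3 copies, and GCAGCC, with 21, 0, 3 and 1, were the most frequent of these. AGGACA (9, 1, 0 and 0) and GTCGTC (9, 1, 0 and 1), both named after their values were seen, had the largest ratio of the members with a copy elsewhere, 8.60, and it rests on 1 copy. Over the 40 members with a copy elsewhere the ratio ran from 2.05 to 8.60 with a median of 2.65. It was under 2.5 in 17 members, and 16 stood at 3 or above or were at 0 elsewhere. The rule counts copies over all libraries, and its minimum was passed with the help of the library where the tags peak: 32 members had 10 or more copies in the Dunel 3 months library alone, and 22 had 10 or more in the other 3 together.

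Just inside the limit stood GGCGCA at a ratio of 2.05, TAGGGG (13, 6, 6 and 3 copies) at 2.07 and CGGCGC (11, 5, 1 and 3) at 2.10. Just outside were GATTTC (6, 1, 0 and 3) and TTGTCT (22, 9, 2 and 11), both at 1.97, and GGGCTG (20, 3, 10 and 6) at 1.93. A change of 1 or a few copies in a library would move each of these tags across the limit, so membership near it is a matter of counting error.

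The members were also set side by side in the other 3 libraries, with two-sided Fisher's exact tests of each tag between the libraries of a pair, adjusted by Benjamini-Hochberg over all 464 tags. Each test compares 2 libraries and not ages or lines. The rule holds the members' shares in these libraries down, and 20 of the 42 passed the minimum of 10 copies only with their copies in Dunel 3 months. The counts of members called are therefore a description, and a low count does not show that the libraries were alike. Between Dunel 9 months and Large White 3 months, 1 of 42 members passed the adjusted threshold of 0.05, against 7.11% of all tags. The count was 1 of 42 against 14.7% between Dunel 9 months and Large White 9 months, and 1 of 42 against 10.3% between the Large White libraries.

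Fewer copies leave less to detect: members had a median of 7, 6 and 6 copies in these pairs, and the other tested tags 10, 9 and 10. Among tags with 20 or more copies in the pair, 0, 0 and 1 of 7 members passed, against 22 of 110, 44 of 99 and 32 of 93 other tags. With an unadjusted p under 0.05 counted, 4, 3 and 2 members passed, against 17.2%, 21.8% and 18.1% of all tags. The median size of the log2 difference between the libraries of a pair, with 0.5 added to each count, was 0.61, 0.67 and 0.85 over the members and 0.81, 0.94 and 0.88 over all tags. Pearson's correlation of the log2 shares over the 42 members was 0.66, 0.75 and 0.62, against 0.64, 0.59 and 0.65 over the 464 tags. Low counts add scatter to these values, and a tag at 0 in both libraries of a pair, such as GCGGAG, has a difference near 0 by construction.

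**Figure D2:**
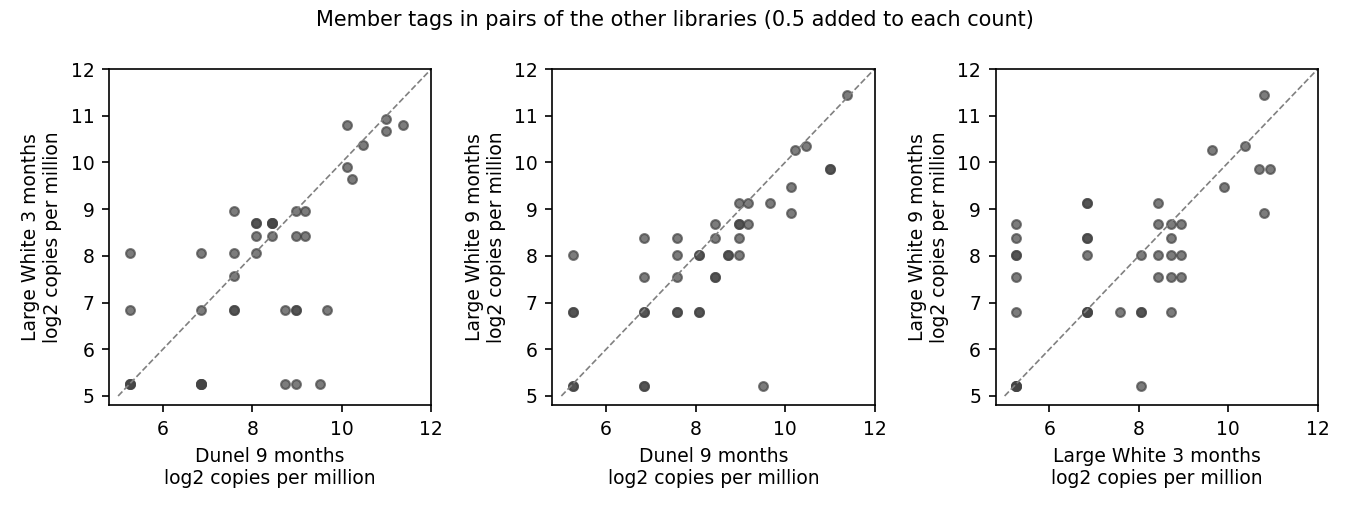
Log2 CPM (copies scaled to the library total, with 0.5 added to each count) of the 42 member tags in each pair of the libraries other than Dunel 3 months. Each point is 1 tag and the dashed line marks equal levels. Points in all 3 panels scatter about the line, and those along the lower or left edge have 0 copies in a library.

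The members called between the other libraries were AAGGCT and TGCCCC. The first had 26 copies in Dunel 3 months, 9 in Dunel 9 months and 0 in each Large White library, so only the libraries of the Dunel pig held it. Its 9 copies outside Dunel 3 months were under the minimum of 10, so no p is given for it. Its calls, lower in each Large White library than in Dunel 9 months, both ended under TMM scaling. A minimum of 5 copies ended the call against Large White 3 months. TGCCCC was lower in Large White 9 months than in Large White 3 months, with 6 copies against 23, a log2 difference of -1.89 (Fisher's exact test, adjusted p = 0.017). TMM scaling, which lowers the total of Large White 9 months by a factor of 0.72, ended this call at a log2 difference of -1.35 (Fisher's exact test, adjusted p = 0.200), and over the alternatives its adjusted p by this exact test ran from 0.010 to 0.200. Under TMM scaling ACTTCA was called higher in Large White 9 months than in Large White 3 months, at a log2 difference of 1.18 (37 against 23 copies, Fisher's exact adjusted p of 0.043, against 0.386 on library totals). CGCTGG had 1 copy in Large White 3 months against 10 in Dunel 9 months, a log2 difference of -2.82. It was called with a minimum of 20 copies and not with 10. It reached 20 copies only with those in Dunel 3 months, so no p is given for it. TMM also moved the median log2 difference of all tags from -0.58 to 0.14 between Dunel 9 months and Large White 9 months and from -0.50 to 0.03 between the Large White libraries.

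A further look at bases showed that 2 members had a counterpart of 10 or more copies that differs by 1 base. The forms are shown with that base in capitals, and positions are counted from 1 at the first base after the anchoring site.
Member AAGGCT: catgaaggctccGccgtcact
Counterpart of the first: catgaaggctccAccgtcact
Member CTGTTG: catgctgtTggtgacattcct
Counterpart of the second: catgctgtCggtgacattcct
For AAGGCT the substitution is G9A. The member form had 26, 9, 0 and 0 copies and the counterpart 0, 0, 19 and 5, so all 35 copies in the Dunel pig were of one form and all 24 in the Large White pig of the other. Summed over both forms the counts were 26, 9, 19 and 5, and the ratio of Dunel 3 months to the highest other share fell from 2.76 to 1.32. For CTGTTG, named after its values were seen, the substitution is T5C. The member form had 13, 5, 0 and 3 copies and the counterpart 0, 0, 11 and 5, and the sum was 13, 5, 11 and 8, with a ratio of 1.14 in place of 2.48. The Dunel pig held 18 copies, all of the member form, and the Large White pig 3 of that form among 19, all of them at 9 months. Counted over both forms, neither tag met the rule, and both were higher at 3 than at 9 months in each pig by count.

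**Figure D3:**
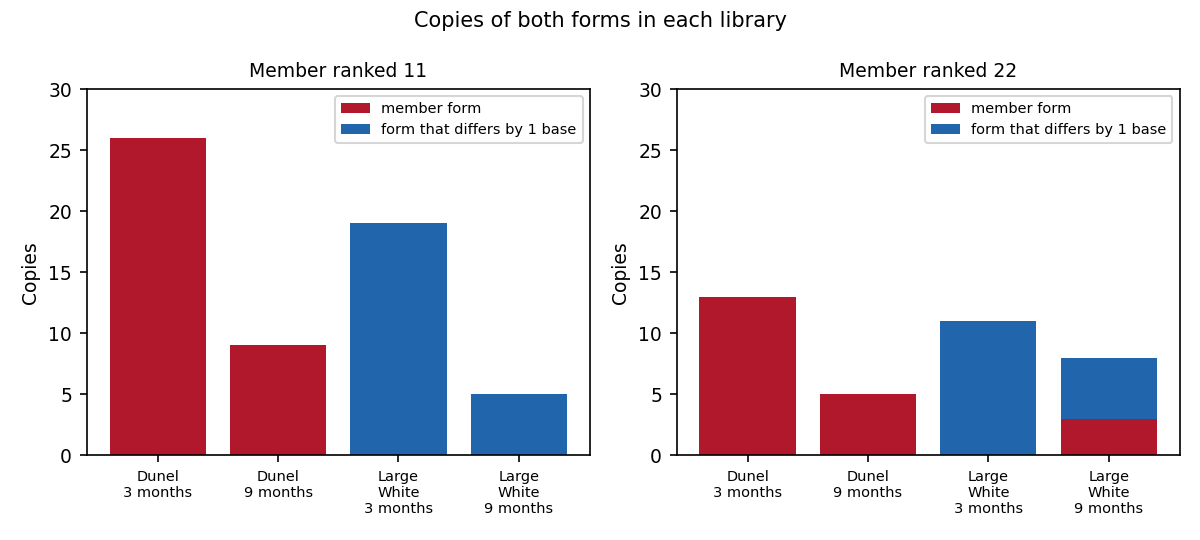
Copies of the member form (red) and of the form that differs from it by 1 base (blue) in each of the 4 libraries, for the members ranked 11 (left, AAGGCT) and 22 (right, CTGTTG). In the left panel the Dunel libraries hold only the member form, 26 and 9 copies, and the Large White libraries only the other, 19 and 5 copies.

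No other member had a neighbour of that size. Of the 42, 31 had at least 1 tag at a distance of 1 base. For ACTTCA there were 18 such tags, with 17, 2, 1 and 2 copies in the 4 libraries and at most 3 copies for any of them in a library, so these scarce neighbours were most frequent where the tag itself was. They equalled 7.23% of its copies in the Dunel 3 months library. No member had a neighbour 1 base away with 50 times its copies or more, and no 2 members were within 3 bases of each other.

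The members were rich in G and C. Their median GC content was 64.7% (range 35.3% to 94.1%), against 52.9% over all 464 tags. Members were 24 of the 161 tested tags with 60% GC or more (14.9%), 15 of the 179 between 45% and 60% (8.38%) and 3 of the 124 under 45% (2.42%). The tags that peaked in Dunel 9 months, Large White 3 months and Large White 9 months had medians of 58.8%, 35.3% and 52.9%. The dinucleotide CG, read on the tag's strand, was present in 27 of the 42 members (64.3%) and in 198 of the 464 tags (42.7%). Among tags with 60% GC or more it was present in 20 of 24 members and 105 of 161 tested tags.

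**Figure D4:**
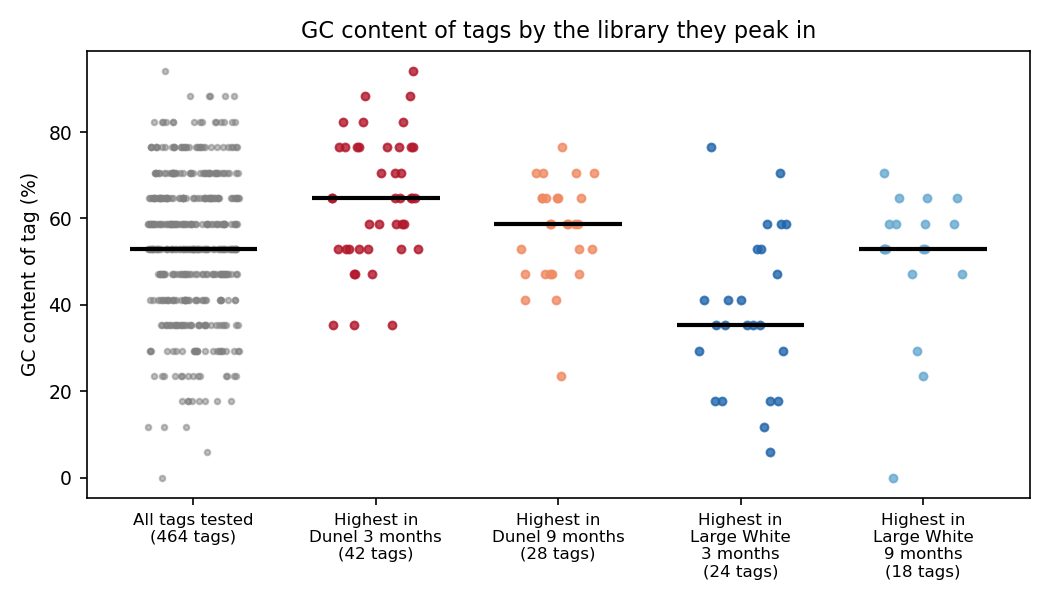
GC content in percent of all 464 tested tags (grey) and of the tags that peak in each library by the same rule. Each point is 1 tag, spread sideways for clarity, and black bars are medians. The median is 64.7% for tags that peak in Dunel 3 months and 35.3% for those that peak in Large White 3 months.

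Base composition also differed between whole libraries, in another order than the medians of the peaking tags. Mean GC content over all tags was 57.1% in Dunel 3 months, 55.3% in Dunel 9 months, 50.9% in Large White 3 months and 49.2% in Large White 9 months. Without the members these means were 56.5%, 55.1%, 50.7% and 49.0%, so the members made only a small part of the gap between the pigs. Tags of 60% GC or more, members left out, held 38.8% and 38.5% of the Dunel libraries at 3 and 9 months, and 30.2% and 24.4% of the Large White libraries. With the members kept, such tags held 42.8% of the Dunel 3 months library and 39.6% of the Dunel 9 months library. Members were chosen for a high share in Dunel 3 months, so leaving them out lowers that library most. The near-equal values of the Dunel libraries without members follow in part from that choice, and no conclusion is drawn from them. The part of GC content in the rest of the pattern was not tested.

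Ditags are the joined tag pairs that SAGE amplifies before cloning, and a pair seen repeatedly may stem from a single molecule or from frequent tags that met more than a single time. In the Dunel 3 months library, 342 of the 1126 member copies (30.4%) lay in ditags listed as repeated, against 33.8% of the copies of the other tested tags. It was 37.0% for the first 12 members and 16.1% for the 30 after them. Of the members, 30 were in at least 1 repeated ditag and 12 in none. CAAACT had the largest share of its copies there, 48.6%, followed by GATGAG with 46.9% and ACTTCA with 44.7%, or 105 of 235 copies. The 90 kinds of repeated ditag with a member were spread over 245 of the 637 clones and all 7 plates, and none of them was seen in a single clone only.

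Counting each repeated ditag a single time kept the set at 7.67% of the Dunel 3 months library, against 2.23%, 1.76% and 1.55% of the others. It left 78.6% of the member copies in Dunel 3 months and 88.3%, 92.0% and 95.1% in the others. ACTTCA went from 235 to 149 copies and its ratio from 6.27 to 4.50, and GCCAGA went from 100 to 68 copies and from 5.31 to 4.09. GATGAG kept 31 of 49 copies at a ratio of 5.59. Below the limit of 2 fell GCCCGT (1.97), CAAACT (1.60) and GGCGCA (1.55) among the first 12. In all, 32 of the 42 tags still met the rule, which in this count also needs 10 copies, and 4 others joined them.

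**Figure D5:**
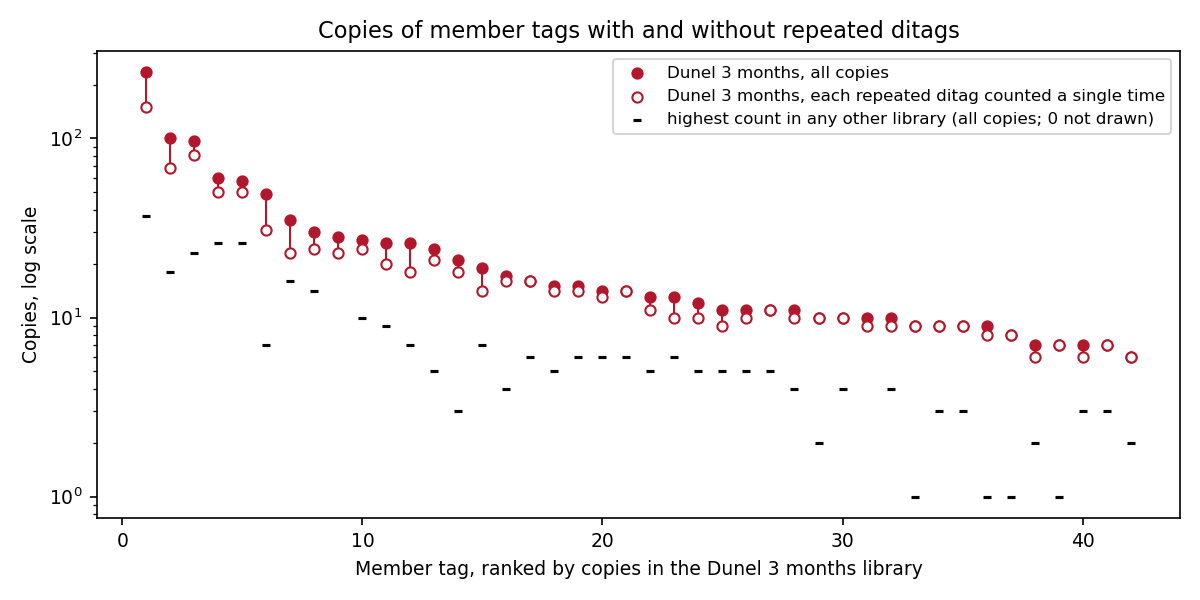
Copies, on a log scale, of the 42 member tags in the Dunel 3 months library, ranked by copies. Filled circles are all copies, open circles count each repeated ditag a single time, and black dashes are the highest count in any other library, all copies counted. The first member goes from 235 to 149 copies, above its highest other count of 37.

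Of the 90 kinds of repeated ditag with a member, 56 had 2 copies. The 10 most frequent tags of the library made up 51.2% of the partner copies of the members. ACTTCA met CTTTTC (567, 445, 582 and 307 copies in the 4 libraries) in 47 repeated ditag copies in Dunel 3 months, 4.79 times the number that random pairing gives. In the other libraries this pair was listed 3, 4 and 3 times. GCCAGA met GAGGGC (92, 159, 130 and 70 copies) 20 times in Dunel 3 months, 29.5 times random pairing, 8 times in Dunel 9 months and in no repeated ditag of the Large White libraries. TGCCCC met GACGGC 13, 3, 2 and 0 times, which was 11.8 times random pairing in Dunel 3 months. Random pairing takes no account of the bases at the tag ends. The listed partners of GCCAGA all ended in A or T and those of ACTTCA all in G or C, though not every member was so restricted. How far this raised the ratios was not tested, so they do not measure an excess of repeats. A pair is listed only from 2 copies on, which raises the ratio where few are expected. These pairs were also chosen for their copies in Dunel 3 months, so the ratios are not compared between libraries.

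As examples, 3 of these ditags are printed with the bases that both tags share in capitals.
Pair of GCCAGA with GAGGGC: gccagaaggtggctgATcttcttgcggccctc
Pair of CAAACT with GCCAGA: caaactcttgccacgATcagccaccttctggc
Pair of GCCAGA with GTGGGA: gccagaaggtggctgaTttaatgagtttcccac
The first was seen 12 times, the others 4 times each. The first 2 ditags have 32 bases and the last has 33, fewer than a pair of separate 17-base tags needs, so the tags overlap by 2 bases and by 1. The 3 tags joined in the first 2 ditags all end in AT, which reads the same on both strands. Ditags of 32 bases were 16.9% of the repeated copies that hold a member and 9.30% of all repeated copies in this library, while those of 33 bases were 35.8% and 44.1%. Members met each other in 11 kinds of repeated ditag with 35 copies, among them CAAACT with GCCAGA (8 copies in both orientations) and GATGAG with ACTTCA (6). The counts of such members are not independent of each other.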

How the data were processed

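The authors deposited, per the file headers, tag counts made with SAGEparser.pl version 3.1, which splits concatemers at CATG and takes 17-base tags from ditags of 32 to 36 bases, with repeated ditags kept. The deposited percent values, each count over the library's valid tags, served only to check the counts. RNA was isolated with TRIZOL, per the labels' protocols. No genome build is named there. The members and named tags were chosen with earlier results of these data known. Named tags are the 12 members with most copies, those at 0 elsewhere, 3 on each side of the limit, those called between other libraries, and the 3 with the largest share of their copies in repeated ditags; others were named after their values were seen. The sequence and values of 1 member are not reported here. Alternatives changed the minimum, the ratio, the scaling, the tag length and the counting of repeated ditags. Random pairing is 2 times the product of the tags' shares times the valid ditags, and pairs listed once per orientation are missed. Fisher's exact tests (SciPy 1.17.1) with Benjamini-Hochberg adjustment were tested on simulated data. TMM factors came from edgeR 4.0.16 in R 4.3.3. Python 3.11.15, NumPy 2.4.6 and matplotlib 3.10.9 were used.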

Additional observations from a re-analysis of the deposited data

How the results depend on the processing

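The number of members depended on the limits of the rule: 98 with a minimum of 5 copies, 77 at a ratio of 1.5 and 16 at a ratio of 3, against 42. It was 36 under TMM scaling and 36 with each repeated ditag counted a single time, 32 of them among the 42 in each case. It was 29 with a minimum of 20 copies, 44 with 15-base tags and 42 without near copies of abundant tags. Chosen after seeing the data, counting repeated ditags a single time over both orientations gave 35, and summing tags 1 base apart gave 45, of which 37 were among the 42. The share of the Dunel 3 months library was 7.48% with a minimum of 20 copies, 12.1% and 4.83% at ratios of 1.5 and 3, 6.65% under TMM and 6.61% when a repeated ditag counted as 1. Each of these shares is for the tags chosen anew under that setting. The 7.67% given above, also with repeated ditags counted as 1, is for the main 42 tags. The share under TMM is of the library total multiplied by its factor of 1.12. The median GC content was 58.8% at a ratio of 1.5 and with a minimum of 5 copies, 66.7% with 15-base tags and 64.7% under the other alternatives. Of all tags, 33 differed between Dunel 9 months and Large White 3 months, and 21 with repeated ditags counted a single time. TMM scaling lowered the calls between Dunel 9 months and Large White 9 months from 68 to 33, with 26 higher and 7 lower in Large White 9 months in place of 21 and 47. It lowered those between the Large White libraries from 48 to 24, with 16 higher and 8 lower at 9 months in place of 12 and 36. At 12980 to 13590 tags a library, ratios of tags with few copies are imprecise.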
